A study of Mus musculus with 12 samples.

Results

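The 14 probe sets described here belong to 10 genes that mark epithelial cells or cells in transition to a mesenchymal state. They are 8 probe sets of 6 epithelial genes (Cdh1, Epcam, Krt7, Krt8, Krt18 and Krt19) and 6 probe sets of 4 mesenchymal genes (Cdh2, Vim, Snai2 and Twist1), chosen by their Affymetrix identifiers from the 45101 probe sets of the array. The gene names came with this list of identifiers, and the tables used here pair no other probe set with a gene, so that markers of other lung cell types and further genes of the pathway were not analysed here. Lungs of 4 male FVB mice without a transgene, histologically normal lung beside the tumors of 4 male FVB mice in which the human surfactant protein C promoter drives wild-type human cyclin E, and adenocarcinomas of such mice were each read on 4 Affymetrix mouse expression arrays, 12 in all. FVB is an inbred mouse strain, the mice were 7 to 11 months old, and the surfactant protein C promoter is active in alveolar type II cells. Tissue was picked by gross pathology, so that a sample holds all the cell types of the piece, and in such bulk samples fewer cells of a type and less RNA per cell cannot be told apart. The label of each adjacent normal lung names a tumor beside it, and the design text gives 4 transgenic mice, so that a tumor and a lung of the same number likely came from the same mouse, while the methods call the 12 samples independent.

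Simple epithelia such as those of the lung carry intermediate filaments built from pairs of a type II keratin (Krt7, Krt8) and a type I keratin (Krt18, Krt19). Their cells are held together by E-cadherin (Cdh1) and carry the adhesion molecule Epcam. In an epithelial to mesenchymal transition, transcription factors such as Snai2 and Twist1 repress Cdh1, and cells come to use N-cadherin (Cdh2) and the intermediate filament protein vimentin (Vim). Vimentin is also abundant in fibroblasts, endothelium and leukocytes, which make up much of a normal lung.

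Snai2 binds E-box elements, of the form CANNTG, and prefers the version CACCTG, which reads CAGGTG on the opposite strand. The 250 bases before the transcription start were in the RefSeq promoter table (GRCm38.p6) for 6 of the 10 genes, Epcam, Krt7, Krt8, Krt18, Vim and Twist1. Of these 6 windows, 4 held the CACCTG version on either strand, those of Epcam, Krt7, Krt8 and Krt18, against 17.2% of all 32851 windows of the table. The windows of Vim and Twist1 did not hold these letters. Any E-box CANNTG, which includes the CACCTG version, was in 66.2% of all windows and in 66.7% of these 6, the same 4 windows. A match of letters is a description of the window and not a binding site. The windows of Krt8, Krt18 and Epcam, which moved together in the tumors, and of Krt7, which did not, are shown 5′ to 3′ on the strand of the gene, with the CACCTG version in capitals.
Epcam, chr17:87635729-87635978, plus strand: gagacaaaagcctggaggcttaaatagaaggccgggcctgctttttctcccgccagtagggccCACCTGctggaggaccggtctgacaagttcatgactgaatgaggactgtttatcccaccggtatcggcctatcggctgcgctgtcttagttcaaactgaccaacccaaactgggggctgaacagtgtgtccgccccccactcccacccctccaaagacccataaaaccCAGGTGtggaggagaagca
Krt8, chr15:102004343-102004592, minus strand: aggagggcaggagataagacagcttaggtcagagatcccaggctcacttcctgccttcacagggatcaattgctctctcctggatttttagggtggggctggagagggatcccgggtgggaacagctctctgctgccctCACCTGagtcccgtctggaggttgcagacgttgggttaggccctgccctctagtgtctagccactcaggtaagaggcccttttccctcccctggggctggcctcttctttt
Krt18, chr15:102027966-102028215, plus strand: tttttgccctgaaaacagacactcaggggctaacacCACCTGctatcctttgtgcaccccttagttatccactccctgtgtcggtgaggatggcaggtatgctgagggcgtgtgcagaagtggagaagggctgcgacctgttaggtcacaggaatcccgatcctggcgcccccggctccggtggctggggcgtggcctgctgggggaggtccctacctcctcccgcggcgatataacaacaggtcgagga
Krt7, chr15:101412153-101412402, plus strand: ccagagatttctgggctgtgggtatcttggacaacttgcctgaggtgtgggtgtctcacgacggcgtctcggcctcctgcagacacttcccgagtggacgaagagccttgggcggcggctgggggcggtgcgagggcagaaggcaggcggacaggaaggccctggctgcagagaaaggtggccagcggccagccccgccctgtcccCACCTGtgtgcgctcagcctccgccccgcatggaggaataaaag
The matches began 187 and 19 bases before the start in Epcam, 111 in Krt8, 214 in Krt18 and 44 in Krt7. Krt8 and Krt18 lie beside each other on chromosome 15, with 2 annotated genes between them and 0 of these protein-coding in the RefSeq annotation.

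Values are log2 signals, so that a difference of 1 is a 2-fold change. The limma test took in probe sets whose signal exceeded 4.18, the median of all values, on 4 or more arrays, and was fitted over all 3 groups with Benjamini-Hochberg adjustment over the 23538 probe sets tested and a threshold of 0.05. Of the members, 11 probe sets of 8 genes passed this filter, each in 11 or 12 arrays, and both probe sets of Cdh2 and the probe set of Twist1 were under 4.18 in all 12 arrays. Tumor 2 stood apart from the other tumors in most members, and results are given with and without it. It was singled out by values of these same data, and leaving it out lowers the spread among the tumors. The p-values without tumor 2 are therefore descriptions of the other tumors and not independent tests. Adjacent normal lung 3 had the highest array median, 4.38, against 4.10 to 4.21 on the other arrays. Precision is set by the small number of arrays. Both comparisons of tumors use the same 4 tumor arrays, so that they are not independent of each other.

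Epcam, Krt8 and Krt18 were higher in tumors than in adjacent normal lung, by 2- to 3.5-fold. Krt19, Snai2 and 1 of 2 Vim probe sets were lower, and Cdh1, Krt7 and the other Vim probe set did not pass the threshold. Of the 11 members tested, 8 probe sets were called in either direction (28.7% of all tested), of which 5 were called higher, where 13.2% of all probe sets tested were, and 3 were called lower, where 15.6% were. Among the 8 epithelial probe sets, 5 rose, 1 fell and 2 did not pass, with a median log2 difference of 1.01 against 0.066 over all probe sets tested. Of the 5 that rose, 3 read Krt8, and the median falls on Krt8, so that by gene 3 of 6 rose (Epcam, Krt8 and Krt18). Among the 6 mesenchymal probe sets, none rose, 2 fell, 1 did not pass and 3 were not tested. The median log2 difference of the 3 tested, which are 2 probe sets of Vim and 1 of Snai2, was -0.78. Over all 6, without the filter, it was -0.47. Against non-transgenic lung, 9 were called (32.5% of all tested), 5 of them higher (15.6% of all tested) and 4 lower (16.9% of all tested). Across the 3 groups 9 members differed in the moderated F-test, where 28.6% of all tested did. Without tumor 2, 6 were called higher and 4 lower against adjacent normal lung, where 23% and 22.1% of all probe sets tested were, and the same numbers against non-transgenic lung, where 24.3% and 22.5% were. In a paired fit of the 8 transgenic arrays, with the replicate number as a block, only Epcam and Krt19 passed against adjacent normal lung, so that 5 higher and 3 lower became 1 and 1. Calls over all probe sets tested fell in this fit as well. With a test that allows unequal variances, no member passed in either comparison of tumors, where 591 and 1489 of the 23538 probe sets tested did. At such low shares the absence of calls among 11 members is no result about them. All 4 tumors lay above all 8 lungs in 0 members (6.98% of all tested) and below them in 2 (10.6% of all tested). Against the 4 adjacent normal lungs alone these were 0 (10.4%) and 2 (13%), and against the 4 non-transgenic lungs 2 (13.3%) and 2 (15.2%).

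Krt18 (probe set ID.1448169_AT), the type I keratin that pairs with Krt8, had a log2 signal of 9.10, 9.12, 9.32 and 9.06 in non-transgenic lungs 1 to 4 and of 9.10, 9.61, 9.23 and 9.60 in adjacent normal lungs 1 to 4. In tumors 1 to 4 it was 11.49, 9.42, 11.40 and 11.23. Tumors 1, 3 and 4 thus lay far above all 8 lungs, while tumor 2 lay within their range. The difference from adjacent normal lung was 1.50 on the log2 scale, or 2.83-fold (standard error 0.37, limma adjusted p = 0.012), and from non-transgenic lung 1.74, or 3.33-fold (limma adjusted p = 0.0049). Within the pairs of the same number Krt18 was higher in 3 of 4 tumors, and a paired limma fit of the 8 transgenic arrays, with the replicate number as a block, gave an adjusted p of 0.077. Without tumor 2 the difference from adjacent normal lung was 1.99, or 3.96-fold (limma adjusted p = 1.1e-06).

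Krt8, the type II partner of Krt18, was read by 3 probe sets, which share a target and are not independent of each other. In the probe set with suffix A (ID.1420647_A_AT) its log2 signal was 9.44, 9.38, 9.60 and 9.78 in non-transgenic lungs, 9.51, 9.88, 9.77 and 10.11 in adjacent normal lungs and 11.21, 9.49, 11.28 and 11.29 in tumors 1 to 4. As for Krt18, 3 tumors lay above every lung and tumor 2 among the lungs. The other 2 Krt8 probe sets (ID.1423691_X_AT and ID.1435989_X_AT), whose suffix X marks probes that can also match similar transcripts, followed the same course. After removal of each probe set's own mean, the 3 readings on an array were at most 0.29 log2 units apart. The differences from adjacent normal lung were 1.01, 1.01 and 1.05, or 2.01- to 2.07-fold (limma adjusted p = 0.031 to 0.046), and from non-transgenic lung 1.27 to 1.33, or 2.41- to 2.51-fold (limma adjusted p = 0.0098 to 0.016). The call against adjacent normal lung was not stable. It was lost for all 3 probe sets without tumor 1, 3 or 4 or adjacent normal lung 1, 2 or 3, and for some of them without adjacent normal lung 4 or any non-transgenic lung (limma adjusted p = 0.053 to 0.13 over these losses), as well as in the paired fit (limma adjusted p = 0.11 to 0.12). Against non-transgenic lung it was lost once, for the suffix A probe set without tumor 3 (limma adjusted p = 0.0504). Without tumor 2 the differences were 1.43 to 1.47 (limma adjusted p = 7.5e-06 to 1.5e-05).

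Epcam (probe set ID.1416579_A_AT), an adhesion molecule of epithelial cells, had the largest difference of the tested members. Its log2 signal was 8.08, 8.14, 8.34 and 8.56 in non-transgenic lungs, 8.25, 8.13, 7.82 and 8.71 in adjacent normal lungs and 10.96, 8.57, 10.56 and 10.02 in tumors 1 to 4. All 4 tumors lay above the non-transgenic lungs, although tumor 2 was close to non-transgenic lung 4, and tumor 2 lay below adjacent normal lung 4. The difference from adjacent normal lung was 1.80, or 3.48-fold (standard error 0.41, limma adjusted p = 0.0076), and from non-transgenic lung 1.75, or 3.36-fold (limma adjusted p = 0.0077). Epcam was higher in 4 of 4 tumors than in the lung of the same number, by 0.44 to 2.74, and passed in the paired fit (limma adjusted p = 0.046). Without tumor 2 the difference from adjacent normal lung was 2.28, or 4.87-fold (limma adjusted p = 1.5e-05). Only 0.969% of all probe sets tested had a higher difference from adjacent normal lung, and 1.7% had a higher one than Krt18.

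Cdh1 (probe set ID.1448261_AT), which encodes E-cadherin, was at 9.11, 9.12, 8.92 and 9.30 in adjacent normal lungs and at 9.51, 8.81, 9.79 and 10.25 in tumors 1 to 4. Tumors 1, 3 and 4 lay above all 8 lungs, which ranged from 8.92 to 9.39, and tumor 2 lay below all of them. The difference from adjacent normal lung was 0.48 (95% interval -0.064 to 1.02, limma adjusted p = 0.17). Without tumor 2 it was 0.74, or 1.67-fold (limma adjusted p = 0.0056). From non-transgenic lung it was 0.43 (95% interval -0.11 to 0.97, limma adjusted p = 0.21), and 0.69 without tumor 2 (limma adjusted p = 0.0079). Krt7 (probe set ID.1423952_A_AT), a type II keratin of simple epithelia, was at 9.38 to 10.03 in the 8 lungs and at 9.39 to 9.95 in the tumors. Its groups overlapped, and the difference from adjacent normal lung was -0.21 (95% interval -0.57 to 0.16, limma adjusted p = 0.37).

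**Figure D1:**
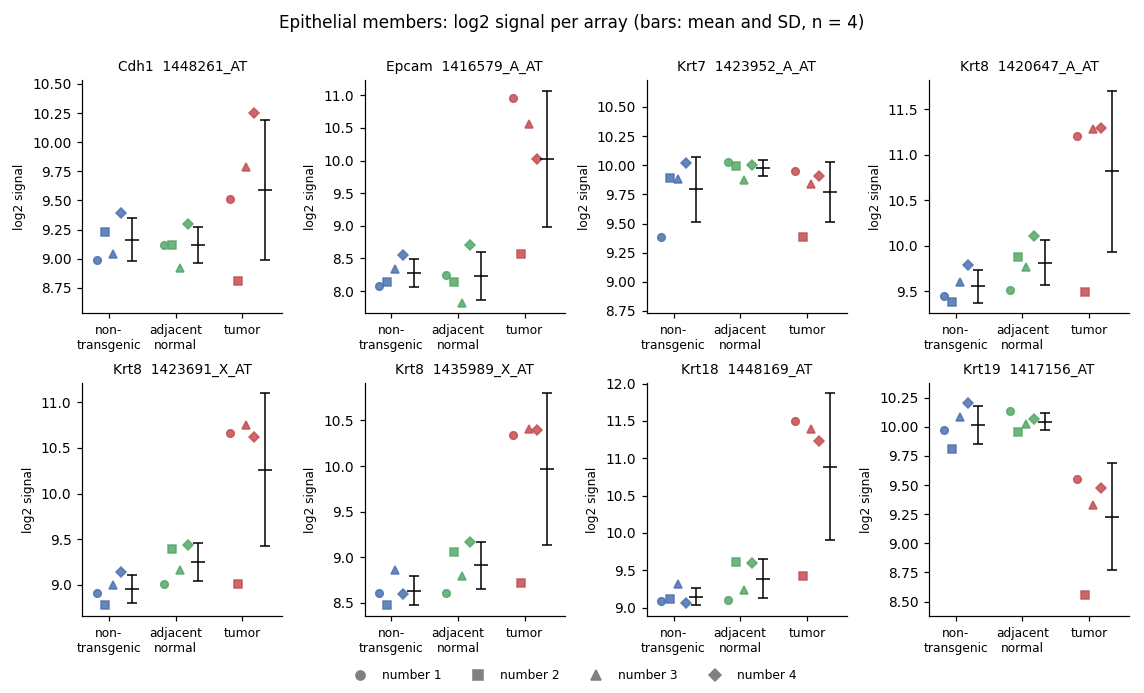
Log2 signal (vertical axes) of the 8 epithelial probe sets in tumors and both kinds of normal lung. Each point is an array, its shape gives the replicate number, and the bars are the mean and SD of 4 arrays. In Krt18, tumors 1, 3 and 4 sit at 11.23 to 11.49, above all lungs, and tumor 2 at 9.42 among them, while in Krt19 all 4 tumors lie below the lungs.

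Krt19 (probe set ID.1417156_AT), a type I keratin like Krt18, moved the other way. Its log2 signal was 9.97, 9.81, 10.08 and 10.20 in non-transgenic lungs, 10.14, 9.96, 10.02 and 10.06 in adjacent normal lungs and 9.55, 8.55, 9.33 and 9.47 in tumors 1 to 4. All 4 tumors lay below all 8 lungs, and tumor 2 was the lowest. The difference from adjacent normal lung was -0.82, or 1.76-fold lower (standard error 0.20, limma adjusted p = 0.010), and from non-transgenic lung -0.79, or 1.73-fold lower (limma adjusted p = 0.011). It was lower in 4 of 4 pairs and passed in the paired fit (limma adjusted p = 0.049). Without tumor 2 the difference from adjacent normal lung was -0.59 (limma adjusted p = 0.0023).

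Differences between genes were also taken within each array. The gene pairs were chosen after the values had been seen, so that these are descriptions with no test. Against adjacent normal lung, Krt18 minus Krt19 was higher in tumors by 2.32 on the log2 scale, the mean of Krt8 minus Krt7 by 1.23, and Epcam minus Cdh1 by 1.32, with all 4 tumors above the 4 adjacent normal lungs in each. Against non-transgenic lung the changes were 2.52, 1.32 and 1.32. Krt18 minus the mean of Krt8 changed less, by 0.48 and 0.44, and since signals of different probe sets are not on a common scale, this does not order the levels of the pair. Cdh1 minus Vim (the probe set with no suffix letter) changed by 1.56 and 1.77, with tumor 2 below all 4 adjacent normal lungs and the other 3 tumors above them.

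Vim, the intermediate filament protein of mesenchymal cells, was read by 2 probe sets. In the probe set with no letter in its suffix (ID.1450641_AT) the log2 signal was 11.98, 11.56, 11.61 and 11.71 in non-transgenic lungs, 11.53, 11.38, 11.28 and 11.64 in adjacent normal lungs and 10.63, 11.63, 9.76 and 9.48 in tumors 1 to 4. Tumors 1, 3 and 4 lay below all 8 lungs and tumor 2 lay among them. The difference from adjacent normal lung was -1.08, or 2.12-fold lower (limma adjusted p = 0.044), and from non-transgenic lung -1.34, or 2.53-fold lower (limma adjusted p = 0.016). In the probe set with suffix X (ID.1438118_X_AT) the same tumors were low, at 9.43 to 9.94 against 10.59 to 11.01 in the lungs, and tumor 2 was at 10.85. The differences there were -0.70 (limma adjusted p = 0.059) and -0.89 (limma adjusted p = 0.021). The centred readings of these 2 probe sets were up to 0.72 log2 units apart on an array, so that the size of the fall depended on the probe set. The call for the first of these against adjacent normal lung was lost without any 1 array other than tumor 2 (limma adjusted p = 0.055 to 0.13) and in the paired fit (limma adjusted p = 0.12). Against non-transgenic lung the call was lost for the first without tumor 3 and for the one with suffix X without tumor 3, tumor 4 or non-transgenic lung 1 (limma adjusted p = 0.052 to 0.064). Without tumor 2 the differences from adjacent normal lung were -1.50 and -1.01 (limma adjusted p = 0.00028 and 0.00014).

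Snai2 (probe set ID.1418673_AT), the transcription factor also called Slug, was at 5.44, 5.96, 5.20 and 5.51 in non-transgenic lungs, 5.71, 5.05, 5.44 and 5.37 in adjacent normal lungs and 4.77, 4.88, 4.11 and 4.67 in tumors 1 to 4. All 4 tumors lay below all 8 lungs, and tumor 3 was under the table's median. The difference from adjacent normal lung was -0.78, or 1.72-fold lower (limma adjusted p = 0.018), and from non-transgenic lung -0.92, or 1.89-fold lower (limma adjusted p = 0.0070). Against adjacent normal lung the call was lost without tumor 3 or adjacent normal lung 1 (limma adjusted p = 0.052 and 0.057) and in the paired fit (limma adjusted p = 0.070). Without tumor 2 the difference was -0.87 (limma adjusted p = 0.0067).

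Cdh2 (probe sets ID.1418815_AT and ID.1449244_AT), which encodes N-cadherin, and Twist1 (probe set ID.1418733_AT), a transcription factor of mesoderm and of the transition, stayed at the dim end of the table in every group. The probe sets of Cdh2 ranged from 2.40 to 2.91 and from 2.51 to 3.18 in the 8 lungs and from 2.26 to 2.43 and from 2.52 to 2.90 in the tumors. Twist1 ranged from 2.31 to 3.10 in the lungs and from 2.62 to 2.69 in the tumors. The 25th percentile of the table is 2.81, and no detection calls were used here, so that these levels were not shown to be above background. When all 45037 probe sets other than controls were tested without a filter, none of the 3 passed in any comparison (limma adjusted p = 0.22 or more), and their differences between tumors and adjacent normal lung were -0.24, -0.17 and 0.0019.

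**Figure D2:**
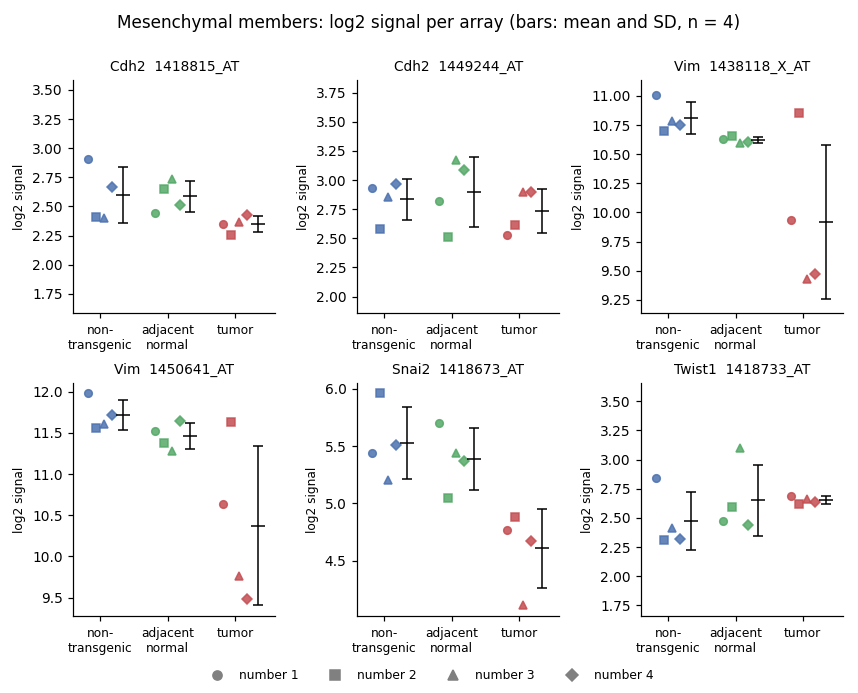
Log2 signal (vertical axes) of the 6 mesenchymal probe sets in the 3 groups. Each point is an array, its shape gives the replicate number, and the bars are the mean and SD of 4 arrays. Vim is low in tumors 1, 3 and 4 but not in tumor 2, Snai2 is low in all 4 tumors, and Cdh2 and Twist1 lie at 2.26 to 3.18 in all groups.

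The members did not all change in the same tumors. In 10 of the 11 tested probe sets tumors 1, 3 and 4 lay together on 1 side of all 8 lungs, 6 above and 4 below, where 21.7% and 19.1% of all probe sets tested did so. These 10 include the 3 probe sets of Krt8 and the 2 of Vim, so that they stand for fewer genes. In 7 of these 10 tumor 2 lay within the range of the lungs, as it did in 45.5% of such probe sets over the whole array. It lay outside in Cdh1, where it was on the opposite side from the other tumors, in Krt19, where it was the lowest of all arrays at 8.55 and the next was at 9.33, and in Snai2. Relative to the mean of the 8 lungs, tumor 2 was at -1.48 in Krt19 while the other tumors were at -0.48 to -0.70, and at 0.15 in Krt18 while the others were at 1.96 to 2.23. The other 3 tumors also differed among themselves. Epcam was at 2.70 above the lungs in tumor 1 and at 1.77 in tumor 4, whereas Cdh1 was at 0.37 in tumor 1 and 1.11 in tumor 4, and Vim (the probe set with no suffix letter) at -0.96 in tumor 1 and -2.10 in tumor 4. Krt8 and Krt18 were close in these 3, at 1.53 to 1.61 (the suffix A probe set) and 1.96 to 2.23.

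**Figure D3:**
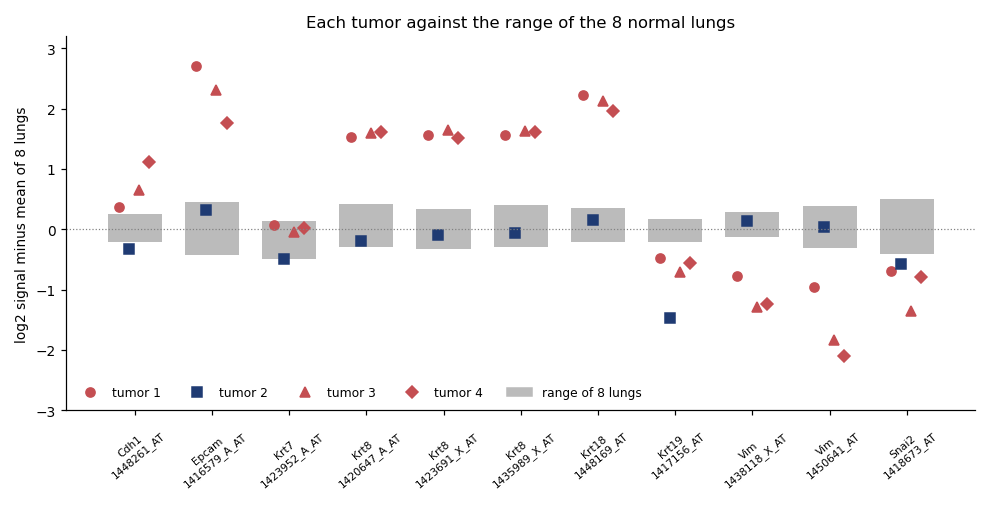
Log2 signal of each tumor minus the mean of the 8 normal lungs (vertical axis) for the 11 tested probe sets, with the grey bars as the range of the 8 lungs. Tumor 2, drawn as dark squares, lies within the lungs in Epcam, Krt7, Krt8, Krt18 and Vim and below them in Cdh1, Krt19 and Snai2.

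Adjacent normal and non-transgenic lung were also compared. They differ in the transgene and in the presence of a tumor nearby, and these cannot be told apart here. The source of the mice may differ as well, since the methods name NCI Frederick for the non-transgenic mice. No member passed the threshold, nor did any of the 23538 probe sets (0% called by limma, 835 at an unadjusted p under 0.05, none of them a member, and 0 after adjustment with the unequal-variance test). Without tumor 2, which enters the shared spread, Krt8 (ID.1423691_X_AT) was higher in adjacent normal lung by 0.30 (95% interval 0.014 to 0.58). Its limma p was 0.041 before and 0.77 after adjustment. The other Krt8 probe sets had unadjusted limma p of 0.075 and 0.090. The log2 differences of the 11 members were -0.26 to 0.30. The narrowest 95% interval was -0.18 to 0.54, for Krt7, and the widest -0.94 to 0.84, for Epcam. Differences within these intervals were not excluded. The intervals rest on a spread shared by all 3 groups, so that they partly reflect the tumors and not the lungs alone. For Epcam the SD was 0.22 in non-transgenic and 0.37 in adjacent normal lungs, against 1.04 in tumors. Without tumor 2 its interval between the normal lungs was -0.54 to 0.44. No member had all adjacent normal lungs above all non-transgenic lungs, as 2.54% of all tested did. In the Vim probe set with suffix X the adjacent normal lungs, at 10.59 to 10.65, lay below the non-transgenic lungs, at 10.70 to 11.01, as in 2.24% of all probe sets tested.

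**Figure D4:**
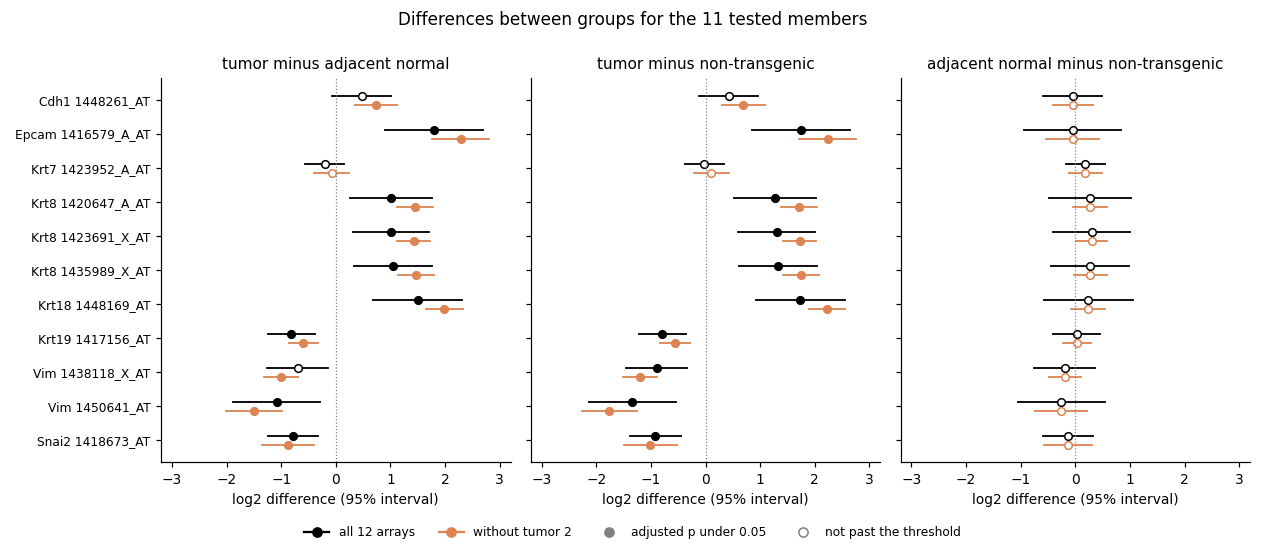
Log2 differences between groups (horizontal axes) with 95% intervals for the 11 tested probe sets, over all 12 arrays in black and without tumor 2 in orange. Filled points passed an adjusted p under 0.05 in limma. Without tumor 2, Krt18 moves from 1.50 to 1.99 against adjacent normal lung and Cdh1 passes the threshold at 0.74, while all points in the comparison of the normal lungs are unfilled.

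Likeness between members over the 12 arrays was described by the root mean square difference of their centred log2 values. All arrays contribute to it, so that it mostly reflects tumors 1, 3 and 4 against the rest. Of the 23537 other probe sets tested, the 3 of Krt8 were the 13th, 41st and 53rd closest to Krt18, at 0.23 to 0.27, and Epcam was the 73rd, at 0.28, whereas Krt19 was the 18254th, at 1.19. The other Vim probe set was the 52nd closest to the Vim probe set with no suffix letter, at 0.28, and Snai2 the 1474th, at 0.50. The closest probe set of the whole array, which the tables used here pair with no gene, was at 0.18 from Krt18, at 0.19 from this Vim probe set and at 0.087 from Cdh1.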

How the data were processed

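The values are log2 signals (1.50 to 14.51) that the authors deposited, made from Affymetrix arrays hybridized with cRNA from 5 μg of total RNA, background corrected and normalized between arrays. The methods name Robust Multichip Average with filtering in GeneSifter and the processing notes name GCRMA, in versions not given in the sources used here. These methods treat background differently, which affects dim probe sets such as Cdh2 and Twist1 most. Controls made up 64 of the 45101 probe sets.

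The members, lists and tests were chosen with earlier results of these data known. All 14 members were named. The model, with a mean for each of 3 groups and no block, was computed by limma (version 3.58.1, lmFit and eBayes, R 4.3.3) after a filter that kept 23538 probe sets (52.3% of those other than controls). Deviations from the group means correlated by -0.030, 0.098, 0.069 and 0.11 between tumor and adjacent normal lung of numbers 1 to 4. Only tumor 4 correlated most with the adjacent normal lung of its own number. The labels and the design text, not these values, are the ground for the paired fit. P-values of the fit with no block take the arrays as independent. In 5 simulated data sets of 23538 probe sets, 200 of them altered in the tumor group against adjacent normal lung, the script recovered 91.4% of 4-fold and 56.6% of 2-fold changes, with 4.08% of calls false. The simulation gave all groups the same spread and independent arrays. In the data 28.7% were called, and Krt18 had an SD of 0.98 in tumors against 0.12 in non-transgenic and 0.26 in adjacent normal lungs. These rates check the script and do not carry over to the data. Alternatives were other filters (none, or the 75th percentile), quantile normalization, median centring, a floor at the 25th percentile, an intensity trend with a robust fit, only the 8 arrays compared, an unequal-variance test, the analysis of variance named in the methods, the replicate number or the mouse as a block, and removal of each array or of tumor 2 and adjacent normal lung 3 together. The lists of pathway genes and cell type markers were not analysed here, since no table paired them with probe sets. Promoter windows were read from a RefSeq table of GRCm38.p6, which had 6 of the 10 genes.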

Additional observations from a re-analysis of the deposited data

Results flagged for a closer look

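Dixon's test of a single distant value was applied to 42 sets of 4 arrays (14 members in 3 groups) and passed its 95% critical value in 4 of them, where about 1 in 20 would by chance. All 4 were tumor 2 in the probe sets of Krt8 and Krt18, and the 3 of Krt8 share a target. Tumor 2 was at 9.49 in the Krt8 probe set with suffix A, with the other tumors at 11.21 to 11.29. In the 2 with suffix X it was at 9.01, with the others at 10.62 to 10.75, and at 8.71, with the others at 10.34 to 10.41. In Krt18 it was at 9.42, with the others at 11.23 to 11.49. In each case tumor 2 lay within the range of the 8 normal lungs.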

How the results depend on the processing

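The paired fit of the 8 transgenic arrays and the differences within arrays were chosen after seeing the data. The members called higher and lower in tumors than in adjacent normal lung, 5 and 3, became 1 and 1 in the paired fit with the replicate number as a block (3282 probe sets in all, against 6765), 2 higher with only the 8 arrays compared (4331 in all) and 0 and 0 with the unequal-variance test (591 in all). With 1 array left out they were 2 to 6 and 1 to 4 (4476 to 10595 in all, the most without tumor 2). With the replicate number as a block over all 12 arrays they were 5 and 2, with Vim (no suffix letter) lost (limma adjusted p = 0.052), and 8 members differed across the groups against 9. Against adjacent normal lung, this Vim call was also lost with no filter (limma adjusted p = 0.062), median centring (0.060) and only the 8 arrays (0.10), and the Krt8 call with suffix A with no filter (0.066) and quantile normalization (0.064), where Vim with suffix X passed (0.042). Against non-transgenic lung, 5 and 4 became 0 and 0 with the unequal-variance test (1489 in all against 7652), and with 1 array left out 4 to 6 and 2 to 4 (5370 to 11011 in all). The 9 members that differed across the 3 groups in the moderated F-test became 5 in the analysis of variance after adjustment, and 4 to 10 with 1 array left out, with 4 without tumor 1, 3 or 4 (4152 to 10395 in all, against 6734). The filter at the 75th percentile tests fewer probe sets, so that its counts over all probe sets cannot be set directly beside the main ones. They were 4069, 4246 and 3884 against adjacent normal lung, against non-transgenic lung and across the groups. Members called with this filter were 5 higher and 2 lower, 5 higher and 3 lower, and 8. Without tumor 2 and adjacent normal lung 3 together the counts over all probe sets were 11206, 12304 and 11509, with 5 between the normal lungs against 0.

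Over all members and alternatives, every difference between tumors and adjacent normal lung kept its direction (263 of 263). Other filters, variance settings, blocks, the 8 arrays alone and removal of a non-transgenic lung leave these group means unchanged. The direction could not change in those, so that much of this count was fixed in advance. Sign changes occurred only in differences that never passed. Krt7 against non-transgenic lung (-0.023) was 0.047 with median centring, 0.11 without tumor 2 and adjacent normal lung 3, and -0.16 to 0.11 with 1 array left out. Between the normal lungs, Cdh1 (-0.048) was 0.037 with quantile normalization and 0.016 without both arrays, Epcam (-0.051) was 0.085 without both, and Krt19 (0.029) was -0.019 with median centring. With 1 array left out the values were -0.11 to 0.028 for Cdh1, -0.21 to 0.085 for Epcam, -0.039 to 0.090 for Krt19 and -0.25 to 0.0067 for Snai2. Median centring moved the median of all differences between tumor and adjacent normal lung by 0.12.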
